A study of Homo sapiens with 6 samples.

Results

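The genes described here are 10 members of the death receptor pathway of apoptosis, chosen by name: the receptors FAS, TNFRSF10A, TNFRSF10B, TNFRSF10D, TNFRSF1A and TNFRSF21, the ligand TNFSF10, the adaptor FADD, the initiator caspase CASP8 and its regulator CFLAR. All 10 were found by symbol among the 20442 genes of the count table, and all 10 passed the low-count filter. They were measured by RNA sequencing in T24, an established line of human bladder cancer cells that the labels call tumor epithelial cells. In the si-KNSTRN group the cells had taken a small interfering RNA against KNSTRN, the gene of a mitotic spindle protein, for 24 h, and in the si-NC group a control siRNA for the same time. Both groups had first been left for 24 h to attach, had no other treatment in the labels, and held 3 libraries each, which the submitters call biological replicates. The labels do not say whether these came from separate thaws or days, so p-values measure the spread between these dishes of 1 cell line. The sources used here give neither the sequences of the siRNAs nor how many were used.

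Death receptors are members of the tumour necrosis factor (TNF) receptor family that carry a death domain inside the cell. When FAS or the receptors for the ligand TRAIL are bound, the adaptor FADD joins the death domain to caspase-8, which cuts itself and then other caspases. The protein encoded by CFLAR, known as c-FLIP, resembles caspase-8 without being an active protease and competes with it in this complex, and decoy receptors bind ligand without passing on the death signal. Epithelial tumour cells commonly express several of these receptors at once.

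The knockdown was seen in the deposited counts. KNSTRN (chromosome 15, 40382721 to 40394288, GRCh38) had 38.3, 41.2 and 41.9 CPM (read counts scaled to library size, with edgeR's TMM factors) in the control libraries and 13.6, 13.6 and 12.2 CPM in the knockdown libraries, each in the order of replicates 1 to 3 as in all such series below. KNSTRN fell by 1.62 on the log2 scale (SE 0.07, adjusted p = 1.7e-11 in edgeR). Libraries held 16386799 to 20596074 counted reads, and 3 reads, the upper limit of a count of 0, equal 0.146 to 0.183 CPM for counting error alone. Of 9 markers of bladder and other epithelium, KRT7, KRT8 and KRT18 were abundant (843 to 1186 CPM as group means), while CDH1 and UPK3A had no read and EPCAM stayed under 1 CPM. KRT19 (1.03 and 0.80 CPM as si-NC and si-KNSTRN means), GATA3 (1.64 and 1.37 CPM) and UPK2 (0.13 and 0.09 CPM) were low too. The immune markers CD3E and MS4A1 were at 0 in every library, and the summed levels of 5 immune and of 3 endothelial markers stayed between 0.871 and 1.45 CPM and between 0.435 and 1.36 CPM. Of 6 fibroblast and smooth muscle markers, COL1A2 was at 0, DCN and LUM were near 0, and COL1A1 (13.3 and 11.1 CPM as group means), MYH11 (15.3 and 14.4 CPM) and ACTA2 (10.8 and 3.97 CPM) were detected; the sum of the 6 was 38.4 to 39.95 CPM in si-NC and 28.0 to 31.3 CPM in si-KNSTRN libraries, and its part in the results was not tested. The mesenchymal marker VIM, at 6474 CPM in the controls and 3830 CPM after si-KNSTRN, was abundant too.

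Transcripts of 5 of the 6 receptors and of the ligand TNFSF10 changed with si-KNSTRN, in both directions, while those of TNFRSF1A, CASP8 and CFLAR did not pass the test. TNFSF10, FAS, TNFRSF10B and TNFRSF10D fell, and TNFRSF21, TNFRSF10A and FADD rose, at an adjusted p under 0.05 in edgeR's quasi-likelihood test. That makes 7 of 10 genes called, beside 62.5% of all 12650 genes tested. The libraries of the groups did not overlap for these 7 genes, beside 67.3% of all genes tested. The 3 rises stand beside 31.2% of all genes called higher and the 4 falls beside 31.3% called lower. Across the 10 genes the median log2 fold change was -0.03 and the median size of change 0.41, against -0.01 and 0.28 over all genes tested. A share of calls so near the background says nothing particular about the pathway as a whole, and the differences below are those of single genes. In bulk RNA, a lower level per cell and a loss of cells that express a gene cannot be told apart.

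**Figure D1:**
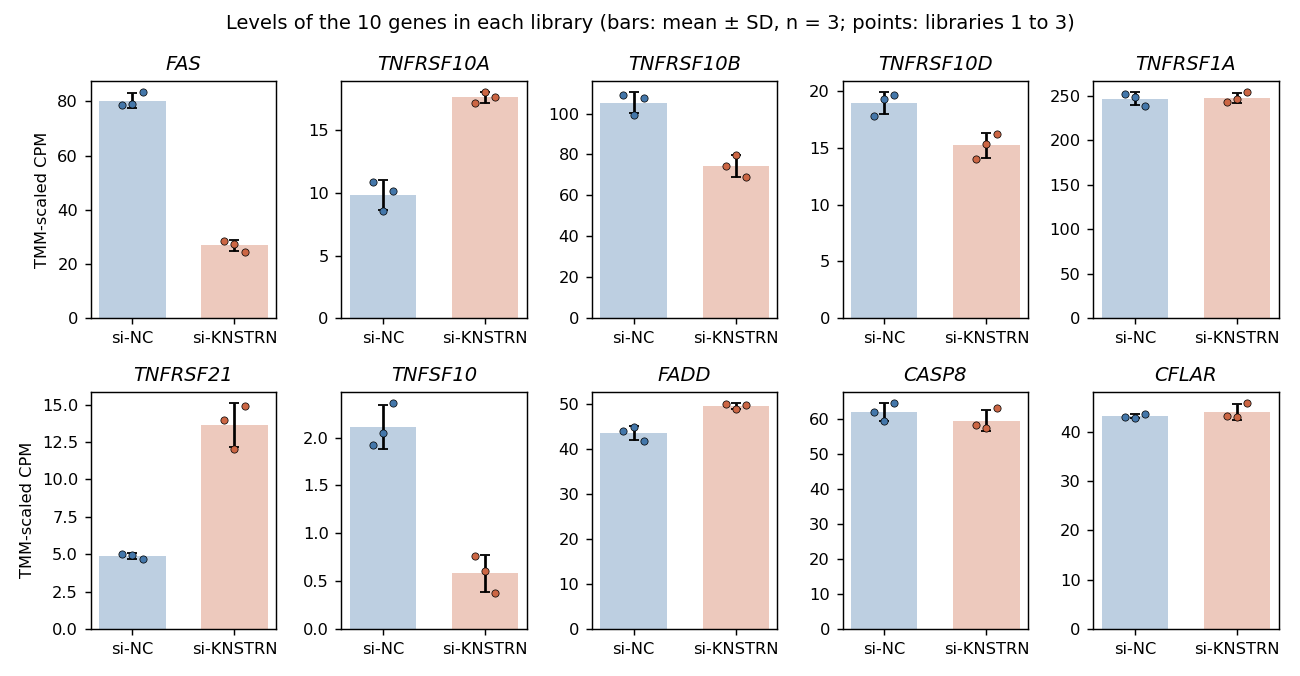
TMM-scaled CPM of the 10 genes in each library, with bars for the group mean, error bars for the SD (n = 3) and 1 point per library; each vertical axis starts at 0 and has its own scale. FAS and TNFSF10 are lower and TNFRSF21 and TNFRSF10A higher in every si-KNSTRN library, and the points of TNFRSF1A, CASP8 and CFLAR overlap between the groups.

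FAS encodes the receptor for FAS ligand, the archetype of the death receptors. It lies on the forward strand of chromosome 10 (88964050 to 89017059, GRCh38). Its level was 78.6, 78.9 and 83.3 CPM in the controls and 28.6, 27.4 and 24.4 CPM after si-KNSTRN. The lowest control library was far above the highest knockdown library. The log2 fold change was -1.58 (SE 0.06, 95% interval -1.71 to -1.45, adjusted p = 3.4e-12 by edgeR), a fold of 0.335, at rank 85 from the lowest among the 12650 genes tested. The ligand gene FASLG had no read in any library.

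ACTA2, the gene of smooth muscle actin, overlaps FAS on the opposite strand, and 380 of the 4253 annotated exon bases of FAS (8.93%) are also exon bases of ACTA2 in GENCODE release 29. Whether the counting used strand is not stated in those sources. ACTA2 itself went from 10.6, 11.01 and 10.9 CPM in the controls to 3.59, 4.49 and 3.82 CPM after si-KNSTRN, and ACTA2 fell by 1.45 on the log2 scale (SE 0.11, adjusted p = 1.6e-08 in edgeR). Its control level was far below that of FAS. Which gene the reads over the shared bases came from was not tested. Gene counts also do not separate the membrane form of FAS from its soluble splice forms.

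TNFSF10 encodes TRAIL, the ligand of TNFRSF10A and TNFRSF10B (chromosome 3, 172505508 to 172523430). It was scarce, with 39, 33 and 43 control reads and 15, 11 and 7 reads after si-KNSTRN, or 1.92, 2.05 and 2.36 CPM against 0.759, 0.610 and 0.377 CPM. No knockdown library reached the lowest control. The log2 fold change of -1.84 was the most negative of the 10 and the least precise (SE 0.26, 95% interval -2.39 to -1.29, adjusted p = 1.2e-05 by edgeR). The gene met the low-count filter through its control libraries. FAS and TNFSF10 were the 2 of 10 genes that fell at least 2-fold, beside 3.4% of all genes tested.

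**Figure D2:**
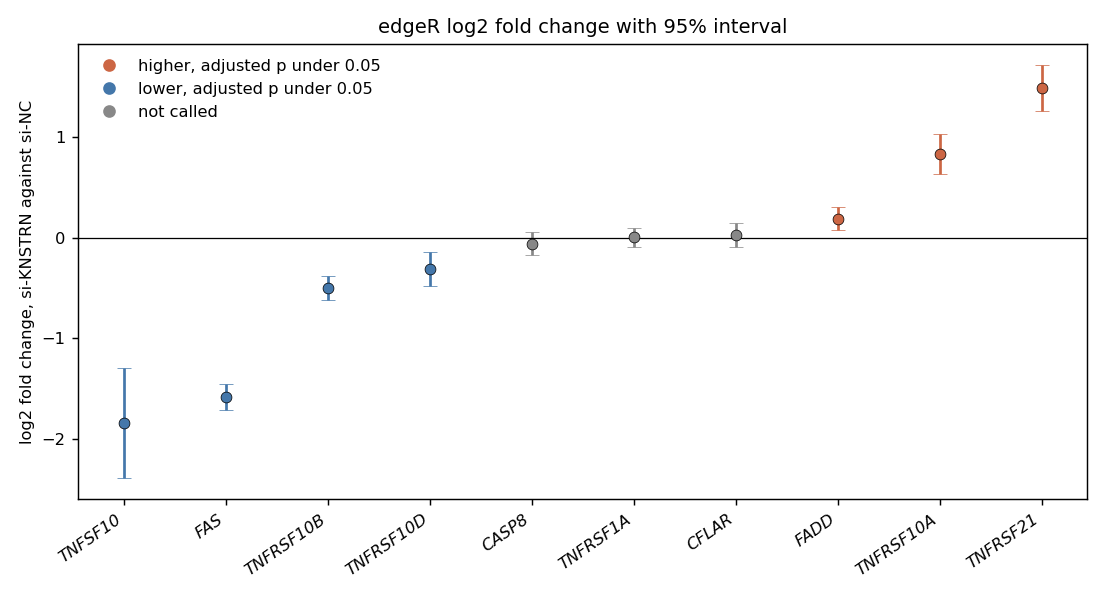
Log2 fold change of each gene in si-KNSTRN against si-NC cells from edgeR, ordered from lowest to highest, with bars for the 95% interval; colour gives the call at an adjusted p under 0.05. The intervals of CASP8, TNFRSF1A and CFLAR include 0, and that of TNFSF10, from -2.39 to -1.29, is the widest.

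The sequence below the stop codon is shown for 3 of the 10 genes because an earlier analysis of these same data found the 6 bases TGAGTA in the 3' untranslated region (UTR) of many genes that were lower in si-KNSTRN cells. The word therefore comes from these fold changes, and the counts given for it are no independent evidence. In GENCODE release 29, with 1 coding transcript per gene, 4 of the 10 genes hold TGAGTA in the 3' UTR: FAS, TNFSF10 and CFLAR with a C before it, and TNFRSF10B without. The site of TNFRSF10B is not shown here. The 26 bases around the word in the other 3 genes read as follows, 5' to 3' on the transcript strand, with the match in capitals.
FAS: attcagttCTGAGTAtatgcaattag
TNFSF10: tatgcaatCTGAGTAgagcagccaca
CFLAR: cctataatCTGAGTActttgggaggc

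In FAS the 7 bases begin at position 24 of a 3' UTR of 1335 bases, counted from the first base after the stop codon. Of its 3 coding transcripts whose 3' UTR has 50 bases or more, 2 hold TGAGTA. In TNFSF10 the 7 bases begin at position 135 of 984, and both coding transcripts hold TGAGTA. In CFLAR they lie at position 3278 of a UTR of 12714 bases, and 2 of its 11 such transcripts hold TGAGTA. Of the 4 genes called lower, FAS, TNFSF10 and TNFRSF10B hold TGAGTA and TNFRSF10D does not. None of the 3 genes called higher holds it, and CFLAR, with a match, was not called. Among 12134 genes searched, 27.2% hold the word, with 35.3% of those called lower, 19.4% of those called higher and 26.9% of those not called. Of the 1462 genes with CTGAGTA, 626 (42.8%) were called lower and 296 (20.2%) higher, beside 31.5% and 31.4% of all genes searched. The median log2 fold change of the 1462 was -0.14. TNFSF10 ranked 7, FAS 15 and CFLAR 971 from the lowest fold change among them. Of 1575 genes with a 3' UTR within 20% of the length of that of FAS, 133 hold CTGAGTA, of which 57 were called lower, against 473 of the 1575. The word was found from these same fold changes, so these calls, counts and ranks are no independent evidence about it. TNFSF10 also met the low-count filter through its control libraries. The part of the word in the fall of FAS or TNFSF10 was not tested.

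The TRAIL receptor genes moved in opposite directions. TNFRSF10B and TNFRSF10A encode the receptors of TRAIL that have a complete death domain, and TNFRSF10D encodes a decoy with a truncated one. TNFRSF10B (chromosome 8, 23020133 to 23069031) had 109, 99.4 and 107 CPM in the controls and 74.5, 79.9 and 68.9 CPM after si-KNSTRN. It was lower in each knockdown library and fell by 0.50 on the log2 scale (SE 0.06, adjusted p = 9.8e-07 in edgeR). TNFRSF10A (chromosome 8, 23190452 to 23225102) had 10.9, 8.52 and 10.1 CPM in the controls and 17.2, 18.0 and 17.6 CPM after si-KNSTRN. Here the knockdown libraries were all above the controls, and the log2 fold change of TNFRSF10A was 0.83 with an SE of 0.09 (edgeR adjusted p = 8.7e-07).

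The decoy gene TNFRSF10D (chromosome 8, 23135588 to 23164027) had 17.8, 19.3 and 19.7 CPM in the controls and 14.1, 15.3 and 16.3 CPM after si-KNSTRN. The groups did not overlap, but the gap between them was small: TNFRSF10D fell by 0.31 on the log2 scale (SE 0.08, adjusted p = 0.0029 in edgeR). These genes sit side by side on chromosome 8 in the order TNFRSF10B, TNFRSF10C, TNFRSF10D and TNFRSF10A. TNFRSF10C, a decoy anchored to the membrane without a death domain, counted 39, 21 and 33 reads in the controls and 18, 18 and 13 after si-KNSTRN, and fell by 0.96 on the log2 scale (SE 0.25, adjusted p = 0.0029). From one end of the cluster to the other, 3 neighbouring genes were therefore lower and the last was higher. A share of the TNFRSF10B transcript, 262 of 4097 windows of 50 bases, occurs in other genes, and so do 52 of 2665 windows of TNFRSF10A. The same holds for 172 of 2881 windows of CASP8 and 529 of 14623 of CFLAR, and for none of the remaining members. Only coding transcripts were compared, in the same direction, so copies in pseudogenes, noncoding RNA or on the opposite strand were not searched. How reads with several alignments were counted is unknown here.

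Ratios within a library show the same genes free of scaling between libraries. With 3 libraries against 3, the exact two-sided permutation test cannot give a p below 0.1, and 4 ratios were compared. The ratio of TNFRSF10A to TNFRSF10B reads was 0.0999, 0.0857 and 0.0942 in si-NC libraries and 0.231, 0.226 and 0.256 in si-KNSTRN libraries. Every knockdown library was above every control, with a log2 difference of 1.35 (exact permutation p = 0.1, the smallest possible; Benjamini-Hochberg adjusted p = 0.13 over the 4 ratios). The ratio of FAS to TNFRSF10B reads was 0.721, 0.794 and 0.776 in the controls and 0.384, 0.344 and 0.355 after si-KNSTRN, a log2 difference of -1.08 (exact p = 0.1, adjusted p = 0.13), so FAS was lower even relative to another receptor that fell.

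The decoy TNFRSF10D, taken per kb of transcript against the sum of TNFRSF10A and TNFRSF10B, stood at 0.166, 0.201 and 0.188 in si-NC libraries and 0.164, 0.168 and 0.199 in si-KNSTRN libraries. These ranges overlapped, and the log2 difference of -0.07 was smaller than the SD of 0.14 among the controls (exact p = 0.6, adjusted p = 0.6). This rests on the TNFRSF10A transcript of 2.714 kb. An alternative chosen after seeing the data took the upper median length of each gene's coding transcripts. With an even number of transcripts, this is the longer of the 2 middle lengths. It was 0.978 kb for TNFRSF10A and, for TNFRSF10B, the longer of its 2 transcripts (4.146 kb), as before. No other length was tried for TNFRSF10B. The ratio was then 0.135, 0.167 and 0.153 in the controls and 0.112, 0.115 and 0.133 after si-KNSTRN. The groups were then just apart, by a log2 difference of -0.34 (exact permutation p = 0.1, the smallest possible). Whether the share of the decoy differed therefore depends on the transcript length taken.

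**Figure D3:**
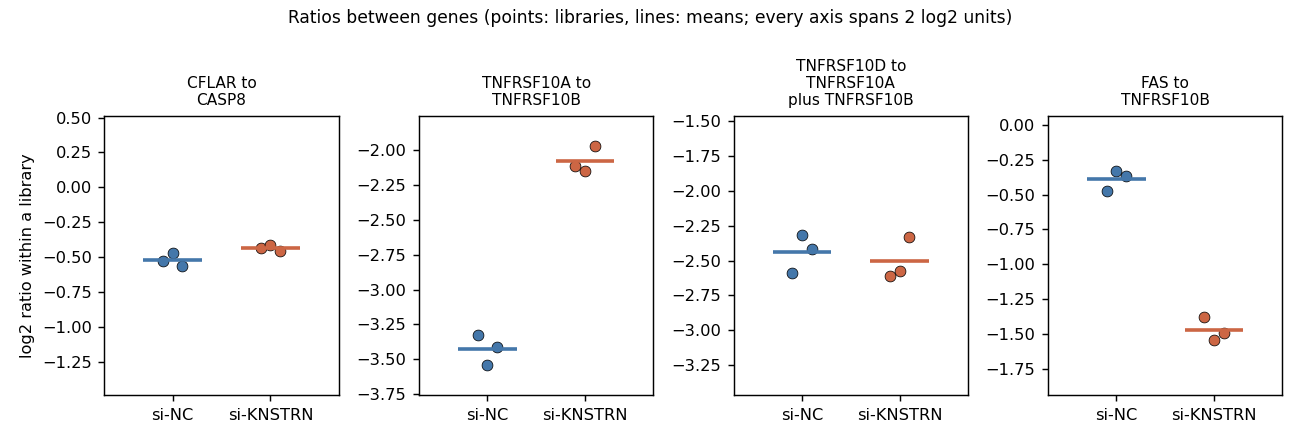
Log2 ratio between genes within each library, with 1 point per library and a line at each group mean; all 4 vertical axes span 2 log2 units. The ratio of TNFRSF10A to TNFRSF10B is 1.35 log2 units higher and that of FAS to TNFRSF10B 1.08 lower in si-KNSTRN libraries, while the decoy ratio, with TNFRSF10A taken as 2.714 kb long, overlaps between the groups.

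TNFRSF1A, the main receptor for TNF on epithelial cells, was the most abundant of the 10 and did not pass the test. It lies on chromosome 12 (6328771 to 6342076) and had 252, 249 and 239 CPM in the controls and 242, 246 and 253 CPM after si-KNSTRN. The groups overlapped fully, and the 95% interval of the log2 fold change ran from -0.09 to 0.10 (adjusted p = 0.94 by edgeR), so a change within that range was not detectable. TNFRSF1A couples first to the adaptor TRADD and the kinase RIPK1 and reaches FADD and caspase-8 in a second complex.

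TNFRSF21, a death receptor studied mostly in neurons and immune cells, rose more than any other of the 10. It lies on chromosome 6 (47231532 to 47309905) and counted 102, 79 and 85 control reads and 276, 217 and 277 reads after si-KNSTRN, or 5.02, 4.91 and 4.67 CPM against 14.0, 12.0 and 14.9 CPM. The groups were well apart. Its log2 fold change of 1.48 (SE 0.11, 95% interval 1.252 to 1.715, adjusted p = 7.3e-09 by edgeR) was a fold of 2.80, at rank 164 from the highest of 12650 genes. It was the 1 gene of the 10 that rose at least 2-fold, beside 3.04% of all genes tested.

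The intracellular members had log2 fold changes nearer 0, and FADD alone was called. FADD, the adaptor (chromosome 11, 70203296 to 70207390), had 44.0, 44.8 and 41.7 CPM in the controls and 50.01, 48.8 and 49.7 CPM after si-KNSTRN. All 3 knockdown libraries were above the controls, with a log2 fold change of 0.19 and an SE of 0.05 (edgeR adjusted p = 0.0072). CASP8 (chromosome 2, 201233463 to 201287711) had 62.0, 59.5 and 64.6 CPM against 58.3, 57.4 and 63.1 CPM. Its groups overlapped, with a 95% interval of the log2 fold change from -0.17 to 0.05 (adjusted p = 0.34). CFLAR (chromosome 2, 201116164 to 201176687) had 43.0, 42.9 and 43.7 CPM against 43.2, 43.0 and 45.9 CPM, also overlapping, with an interval from -0.09 to 0.15 (adjusted p = 0.70).

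The ratio of CFLAR to CASP8 reads was 0.693, 0.722 and 0.677 in si-NC libraries and 0.741, 0.750 and 0.727 in si-KNSTRN libraries. The groups lay just apart, by a log2 difference of 0.08 (exact permutation p = 0.1, the smallest possible; adjusted p = 0.13 over the 4 ratios). Counts per gene do not tell the long and short splice forms of c-FLIP apart, nor the forms of caspase-8. CASP10, the other initiator caspase with death effector domains, lies between CFLAR and CASP8 on the same strand, 6453 bases from the first and 4056 from the second in the RefSeq annotation. Its level went from 6.59 ± 0.758 to 4.38 ± 0.713 CPM (SD, n = 3 each) and fell by 0.59 on the log2 scale (SE 0.14, adjusted p = 0.0016 in edgeR), between neighbours that were not called.

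Divided by transcript length, the levels of the 10 genes can be set beside each other, as CPM per kb of 1 coding transcript per gene. In si-NC cells TNFRSF1A led with 111 ± 3.21 CPM per kb (SD, n = 3), followed by FAS at 31.3 ± 1.04, TNFRSF10B at 25.4 ± 1.24, FADD at 23.6 ± 0.883 and CASP8 at 21.2 ± 0.879. TNFRSF10B and FADD overlapped across libraries, and the other neighbours in this order did not. TNFRSF10D (5.35), TNFRSF10A (3.62), CFLAR (2.95), TNFRSF21 (1.36) and TNFSF10 (1.08 CPM per kb) made up the lower end. In si-KNSTRN cells FAS, at 10.47 ± 0.840 CPM per kb, came after TNFRSF1A, FADD, CASP8 and TNFRSF10B. TNFRSF10A (6.49) came ahead of TNFRSF10D (4.30), and TNFRSF10D overlapped with TNFRSF21 (3.79 CPM per kb). Several of these places rest on the transcript taken. With the upper median length of each gene's coding transcripts instead, the si-NC level of CFLAR was 35.1 CPM per kb, the 4th of the 10. Its length was then 1.23 kb in place of 14.7 kb, while TNFRSF10B kept 4.146 kb. That of CASP8 was 48.7 CPM per kb, ahead of FAS at 46.6 and behind TNFRSF1A only. TNFRSF1A, at 184 CPM per kb, still led. TNFRSF10A, at 10.06 CPM per kb, was then ahead of TNFRSF10D already in si-NC cells, so these did not exchange places. FAS was still further down the order in si-KNSTRN cells (15.6 CPM per kb, place 7) than in si-NC cells (place 3).

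Summed over the 6 receptors, the level was 176 to 181 CPM per kb in si-NC libraries and 152 to 155 in si-KNSTRN libraries. Within that sum FAS went from 17.6 ± 0.764% to 6.79 ± 0.605% and TNFRSF10B from 14.3 ± 0.60% to 11.6 ± 0.881% (SD, n = 3). TNFRSF1A, whose own level did not pass the test, made up 62.3 ± 1.30% in the controls and 72.1 ± 1.09% after si-KNSTRN. TNFRSF10A went from 2.04 ± 0.229% to 4.21 ± 0.068% and TNFRSF21 from 0.761 ± 0.021% to 2.46 ± 0.267%. The sum of FAS, TNFRSF10A and TNFRSF10B, the receptors that recruit FADD directly, was 57.9 to 62.1 CPM per kb in the controls and 32.6 to 36.6 after si-KNSTRN. With upper median transcript lengths the share of FAS went from 17.1 ± 0.783% to 6.38 ± 0.582%, and that of TNFRSF10A from 3.68 ± 0.416% to 7.37 ± 0.128%. The sum of FAS, TNFRSF10A and TNFRSF10B was then 78.5 to 84.6 against 48.8 to 53.6 CPM per kb. These shares describe transcripts, and receptor protein at the cell surface was not measured.

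**Figure D4:**
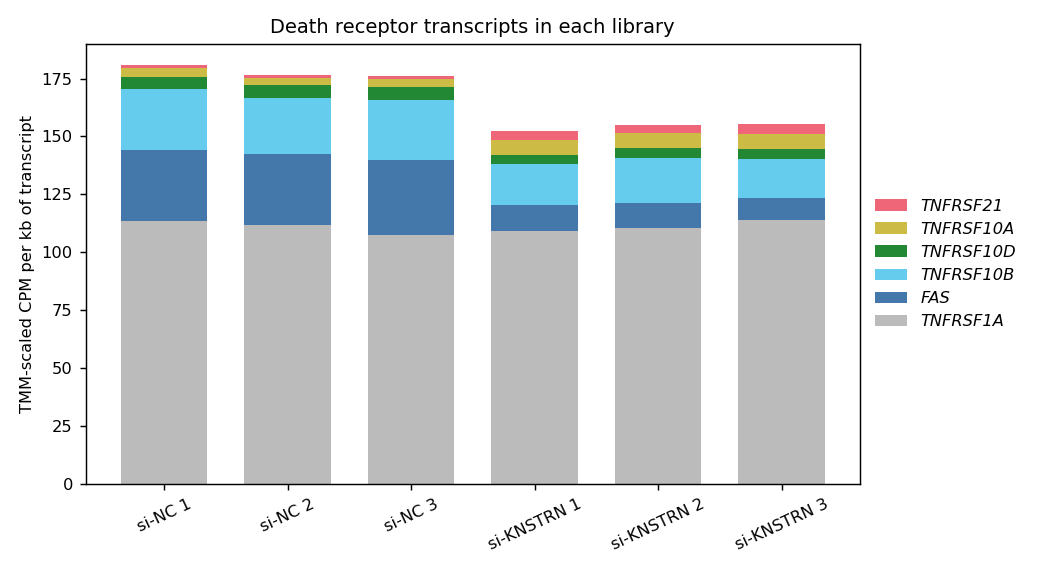
TMM-scaled CPM per kb of transcript of the 6 receptor genes, the decoy gene TNFRSF10D included, stacked for each of the 6 libraries. TNFRSF1A makes up most of every bar, the FAS segment is smaller in the 3 si-KNSTRN libraries, and the whole bar is 176 to 181 in si-NC and 152 to 155 in si-KNSTRN libraries.

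Other receptors and ligands of the family were counted from a list of 14 genes, of which 8 had enough reads for a test. Of these, 4 rose, 2 fell and 2 were not called (75.0% called, against 62.5% of all genes tested), with a median log2 fold change of 0.18. TNFRSF11B, which encodes the soluble decoy osteoprotegerin, rose from 5.81 ± 0.517 to 12.2 ± 0.509 CPM (SD over 3 libraries, as below; log2 fold change 1.07 with SE 0.10, edgeR adjusted p = 1.6e-07). TNFRSF12A, the receptor of the ligand TWEAK, which has no death domain, rose from 171 ± 8.56 to 243 ± 14.1 CPM. TNFRSF6B, a soluble decoy for FAS ligand, fell from 336 ± 23.5 to 239.6 ± 11.2 CPM (fell by 0.49 on the log2 scale, adjusted p = 9.1e-07 in edgeR). TNF rose from 11.9 ± 1.87 to 16.9 ± 1.77 CPM (adjusted p = 0.00075 in edgeR), and TNFSF12, the gene of TWEAK, was the other rise. FASLG and EDA2R had no read, and LTA, NGFR, EDAR and TNFRSF1B had at most 4 reads in a library.

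Partners of the receptor complexes were counted over 24 genes, 23 of them tested: 5 rose, 6 fell and 12 were not called (47.8% called, against 62.5% of all genes tested), with a median log2 fold change of 0.03. TNFAIP3, which encodes the ubiquitin-editing inhibitor A20 of TNF receptor signalling, rose from 108 ± 2.55 to 182 ± 5.76 CPM (log2 fold change 0.76 with SE 0.05, edgeR adjusted p = 7.1e-10). MLKL, the executor of necroptosis, rose from 31.8 ± 0.929 to 49.6 ± 2.14 CPM, whereas the necroptosis kinase gene RIPK3 had no read in any library. PEA15, a death effector domain protein that can bind FADD and caspase-8, rose from 138 ± 5.03 to 171 ± 4.69 CPM. RBCK1, a subunit of the linear ubiquitin ligase complex, fell from 87.4 ± 3.96 to 67.1 ± 0.925 CPM. BIRC3 and SHARPIN also rose, and TRADD, CYLD, MAP3K7, TAB2 and CASP8AP2 also fell. RIPK1, the kinase of the TNFRSF1A complex, had 57.8 ± 2.46 and 58.2 ± 0.719 CPM and was not called.

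Among 15 tested genes of a list of 16 other caspases and their regulators, 3 rose, 2 fell and 10 were not called (33.3% called, against 62.5% of all genes tested), with a median log2 fold change of 0.09. HTRA2, a mitochondrial protease that counters inhibitors of apoptosis, rose from 53.1 ± 1.63 to 68.5 ± 5.77 CPM. CASP1 was among the rises, with a log2 fold change of 0.18, and CASP10 among the falls. BID, which carries the signal of caspase-8 to mitochondria, had 36.5 ± 0.717 and 40.3 ± 2.76 CPM and missed the threshold (edgeR adjusted p = 0.062). CASP14 had no read.

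**Figure D5:**
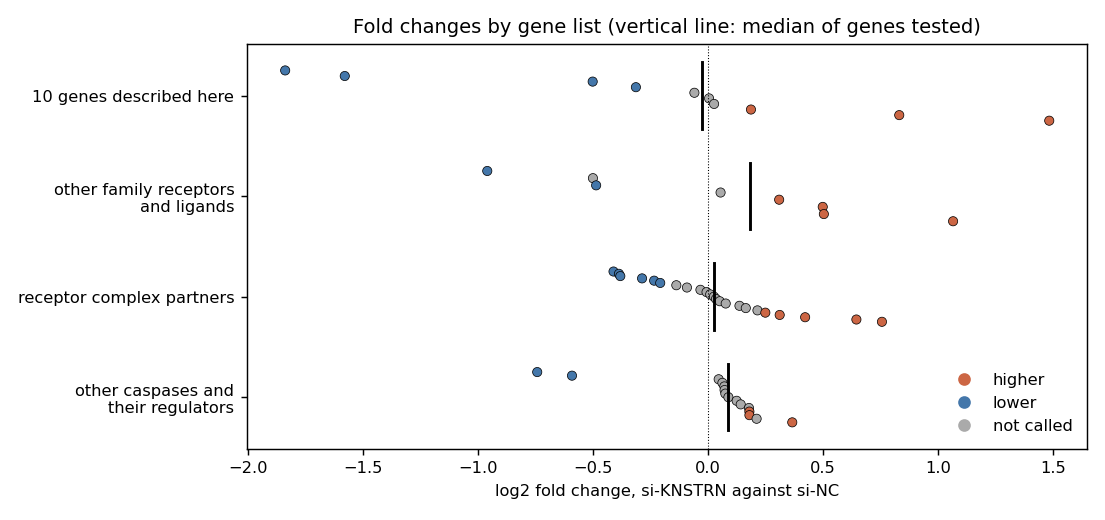
Log2 fold change of each tested gene in si-KNSTRN against si-NC cells, 1 point per gene and 1 band per list, coloured by the call at an adjusted p under 0.05, with a vertical line at each list's median. The 10 genes described here span -1.84 to 1.48 around a median of -0.03, and 10 of the 15 tested genes of the other caspases list were not called.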

How the data were processed

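The values are the authors' deposited raw read counts per gene, 1 column per library, without normalization. HISAT2 2.0.1, featureCounts, fastp 0.20.0 and FastQC 0.11.5 are named with GRCh38, per the submitters' processing notes, without settings. Samples were grouped by title and matched to columns by the description labels. The counts were tested with edgeR 4.0.16 in R 4.3.3: filterByExpr (minimum count 10), TMM factors and the quasi-likelihood test, two-sided and without a replicate term, adjusted by Benjamini-Hochberg over 12650 genes. Of 20442 genes, 3984 had no read. Replicate pairs differed beyond sampling noise (chi-square per degree of freedom 1.99 to 8.85), so none was merged. The highest values, 8.85 and 6.06, were those of si-KNSTRN replicate 3 with replicates 1 and 2, which gave 2.36 with each other. The members, gene lists and tests were chosen with earlier results of these data known. Named genes were all members, the 4 genes of smallest p in each list, other called genes by name, and genes beside or overlapping a member; others named were chosen after their values were seen. Some genes that this rule would name are not reported here by name. Coordinates are RefSeq's for GRCh38.p14. Transcripts are GENCODE release 29, 1 per gene: a coding transcript whose 3' UTR holds 50 bases or more, preferring the basic set, the principal isoform and then length (12134 genes, 95.9% of those tested). The requirement on UTR length was added after a first rule had left CASP8 without a 3' UTR. The promoters of the members were also searched for the AP-1 motif and 3 other motifs; that search was dropped after its matches were seen and is not reported. The fit was first tested on simulated counts with known changes in 50 genes per fold. It recovered 54% of 1.25-fold, 86% of 1.5-fold, 98% of 2-fold and 96% of 4-fold changes, with 9 false calls among 12425 unchanged genes. Far fewer genes were changed there than were called in these data. Alternatives were other scaling factors, DESeq2 1.42.0, limma-voom (limma 3.58.1), other filters, a stricter threshold, a replicate block and each library left out. For values per kb, the upper median length of each gene's coding transcripts was another, chosen after seeing the data. Python 3.11.15 was used for ratios and sequences.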

Additional observations from a re-analysis of the deposited data

How the results depend on the processing

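All 7 called members kept their direction and call under each of the 14 alternatives run for a single gene, and 3 higher and 4 lower members were counted under all 15 run for counts. FAS ranged from -1.63 to -1.52 on the log2 scale, TNFSF10 from -2.09 to -1.61, TNFRSF21 from 1.42 to 1.57 and FADD from 0.14 to 0.22 (adjusted p at most 0.032). Members that were not called changed sign without gaining a call: TNFRSF1A to -0.039 and CFLAR to -0.017 with upper-quartile factors, TNFRSF1A to -0.020 without si-NC replicate 3 and to -0.013 without si-KNSTRN replicate 3, and CFLAR to -0.0039 without si-KNSTRN replicate 3. With each library left out in turn, TNFRSF1A ranged from -0.020 to 0.021 and CFLAR from -0.0039 to 0.044. Over all genes, the called numbers ran from 3284 to 4339 higher and from 3221 to 4450 lower. The log2 difference in the decoy ratio stayed between -0.16 and -0.01 under the alternatives planned. It was -0.34 with upper median transcript lengths, chosen after seeing the data (exact permutation p = 0.1). With the replicate number as a block, edgeR called 3831 genes higher and 3857 lower, and the same 7 members. Deviations of same-numbered libraries correlated by -0.07, 0.01 and -0.10, and no library correlated best with its own number. Such deviations around means of 3 libraries cannot decide whether a number marks a shared batch. For the 4 ratios, an exact sign-flip test of the 3 same-numbered differences cannot go below p = 0.25. TNFSF10, with 7 to 43 reads, is limited by depth.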
